A study of Mus musculus with 2 samples.

Results

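The Reg family was read here across the cell types of the jejunal crypt epithelium of mice that lack miR-375. The 5 members are Reg1, Reg3a, Reg3b, Reg3g and Reg4, chosen by name out of 27998 genes in the count matrices, and all 5 were present and passed the filter on low counts. The samples were jejunal crypts of 2 male mice, both miR-375 knockout (375KO) and 12 months old, with strain C57BL6/2J on the label and B6 albino in the methods. The deletion is present in the whole body, was made by CRISPR/Cas9 in embryos of a hybrid background and was then backcrossed to B6 albino. Crypts were dissociated with dispase, and each mouse gave 1 droplet library that counts the 3′ ends of polyadenylated RNA by unique molecular identifier (UMI), so each captured molecule counts once whatever its length. Both mice carry the same genotype and no wild-type library was used, so nothing here measures an effect of miR-375.

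Reg proteins are small secreted C-type lectins. Reg3b and Reg3g are antimicrobial lectins of the small intestine, and Reg3g kills Gram-positive bacteria after binding their peptidoglycan and helps keep bacteria away from the epithelial surface. Their transcription is known to be raised by IL-22 signalling through STAT3 and by microbial signals through MyD88. Reg1 was first described as a growth factor of regenerating pancreatic islets, Reg3a is a close relative of Reg3b and Reg3g, and Reg4 is known as a product of secretory cells of the gut.

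In the GENCODE M21 annotation of GRCm38 (mm10), Reg1, Reg3a, Reg3b and Reg3g lie together on chromosome 6 with Reg2 and Reg3d, 6 protein-coding genes within 98.2 kb (chr6:78370657-78468872). Reg4 lies apart on chromosome 3 (chr3:98222156-98236748, plus strand). Reg3b (chr6:78370657-78373466), Reg3a (chr6:78380709-78383827) and Reg1 (chr6:78422711-78428667) are on the plus strand, and Reg3g (chr6:78466269-78468872) is on the minus strand. No 60-base stretch in the last 400 bases of the longest transcript of any of these 7 genes was found in the transcript of another gene, so reads of that length from those ends tell the members apart.

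The 250 bases before the start of Reg3b and Reg3g are shown because these members varied together from cell to cell, and those of Reg4 because it followed another pattern. The sequences and starts are from RefSeq, on GRCm38.p6, and run 5′ to 3′ on the strand of the gene. For Reg3b the RefSeq start lies inside the GENCODE gene, so most of its window does too. Capitals mark TTCNNNGAA, the letters that STAT factors are known to bind, searched for on both strands, where the letters read the same.
Reg3b (chr6:78370635-78370884, plus strand): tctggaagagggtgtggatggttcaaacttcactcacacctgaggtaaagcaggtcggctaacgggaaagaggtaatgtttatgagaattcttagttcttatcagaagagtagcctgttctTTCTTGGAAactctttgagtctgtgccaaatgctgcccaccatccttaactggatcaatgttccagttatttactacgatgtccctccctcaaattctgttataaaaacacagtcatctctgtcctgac
Reg3g (chr6:78468875-78469124, minus strand): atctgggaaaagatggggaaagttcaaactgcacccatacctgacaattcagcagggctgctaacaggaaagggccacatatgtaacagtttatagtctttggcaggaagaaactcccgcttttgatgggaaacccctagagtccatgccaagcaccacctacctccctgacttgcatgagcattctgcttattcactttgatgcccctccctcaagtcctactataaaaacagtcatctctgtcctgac
Reg4 (chr3:98221906-98222155, plus strand): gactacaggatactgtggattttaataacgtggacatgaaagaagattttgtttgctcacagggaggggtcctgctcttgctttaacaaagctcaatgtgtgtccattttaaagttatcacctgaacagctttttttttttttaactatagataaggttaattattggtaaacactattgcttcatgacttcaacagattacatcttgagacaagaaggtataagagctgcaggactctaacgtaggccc

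Among the 5 members only Reg3b held the STAT letters in this window, from 129 to 121 bases before the start. They occur in the same window of 7.02% of 32851 promoters. In a global alignment, the Reg3b and Reg3g stretches were identical at 68.9% of aligned columns. Those of Reg3b and Reg4 were identical at 49.5%, and those of Reg3a and Reg3b at 47.9%.

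The deposited annotation keeps 2082 cells of replicate 1 and 1193 of replicate 2 in 10 types, with medians of 16475 and 15232 UMIs per cell, and the libraries share 0 barcodes. All 6 enterocyte, goblet, Paneth, enteroendocrine (EEC), tuft and lymphocyte (IEL) markers were highest in their own type in both mice, as were 5 of 6 stem and 4 of 6 transit-amplifying (TA) markers. Of the 8 pancreatic acinar markers, 4 and 5 were at 0 in the kept cells, Cpa1, Pnlip, Cel and Amy2a5 among them, and the summed level of the list was at most 64.7 UMIs per 1000000 UMIs of the type (CPM) in any type. Fibroblast or endothelial markers summed to at most 76.2 CPM. Myeloid markers summed to at most 1923 CPM in the IEL of replicate 1 and to 9.35 and 7.67 CPM in enterocytes. Each library is another mouse, so a difference between mice and one between preparations cannot be told apart.

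Enterocytes, the absorptive cells of the epithelium, carried most of the RNA of the 4 members on chromosome 6. In replicate 1 they held 96.2% of the Reg1 UMIs, 97.6% of the Reg3a UMIs, 93.5% of the Reg3b UMIs and 84.6% of the Reg3g UMIs of the kept cells. In replicate 2 the shares were 92.4%, 99.2%, 96.1% and 78.1%. Over all genes, enterocytes held 19366535 of the 44017234 kept UMIs of replicate 1 and 5348340 of the 22163354 of replicate 2. The shares of the 2 mice thus have unlike baselines. Together the 5 members made up 1.99% of all enterocyte UMIs in replicate 1 and 0.662% in replicate 2.

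**Figure D1:**
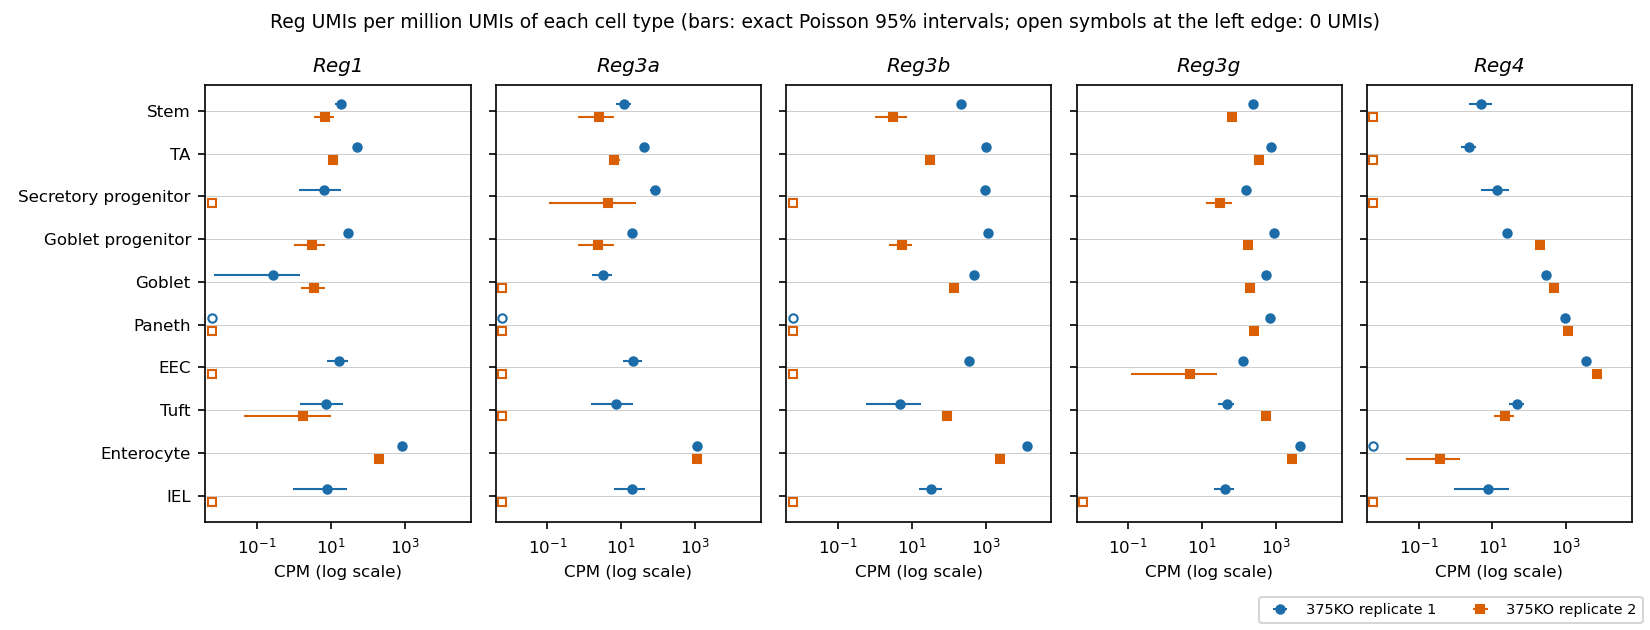
CPM of each member (horizontal, log scale) in each of the 10 annotated cell types, with blue circles for replicate 1, orange squares for replicate 2 and bars for the exact Poisson 95% interval. Enterocytes are highest for Reg1, Reg3a, Reg3b and Reg3g in both mice, and EEC for Reg4. Open symbols at the left edge mark types with 0 UMIs, among them Paneth cells for Reg1, Reg3a and Reg3b.

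Reg3b was measured at 13361 CPM in the enterocytes of replicate 1 and at 2524 CPM in those of replicate 2 (mean 7942 ± 7663 CPM, SD, n = 2). Its next levels in replicate 1 were 1173 CPM in goblet progenitors, 1040.0 CPM in TA cells, 936 CPM in secretory progenitors and 499.7 CPM in goblet cells. In replicate 2 the same types gave 5.40, 30.4, 0 and 142 CPM. Both mice had enterocytes above every other type, and none of the neighbours after enterocytes in the order of mean levels stood apart in both mice.

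Reg3g reached 4553 and 2802 CPM in enterocytes of replicates 1 and 2 (mean 3678 ± 1238 CPM, SD, n = 2). It was the broadest of the members on chromosome 6. TA cells held 757 and 339 CPM, goblet progenitors 859.7 and 172 CPM, Paneth cells 675 and 252 CPM, goblet cells 554 and 203 CPM (46.4 CPM in replicate 2 without 1 cell), and stem cells 242 and 65.5 CPM. Within each mouse TA cells lay above Paneth cells, goblet cells and stem cells in that order, while goblet progenitors changed place. Without the 1 goblet cell, goblet cells of replicate 2 lay below stem cells.

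Reg3a was at 1127 CPM in enterocytes of replicate 1 and at 1088 CPM in those of replicate 2 (mean 1108 ± 27.4 CPM, SD, n = 2). No other type exceeded 82.5 CPM in replicate 1 or 6.47 CPM in replicate 2. Reg1 was at 812 and 205 CPM in enterocytes (mean 509 ± 429 CPM, SD, n = 2), with TA cells next at 49.2 and 11.4 CPM. For both genes the 2 mice had enterocytes above all other types. Below them no neighbouring types stood apart in both mice, except goblet over Paneth cells for Reg1. That pair was at 0.264 and 3.58 CPM against 0 and 0 CPM, and rests on few UMIs. Goblet cells had 1 and 8 Reg1 UMIs.

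Paneth cells, which secrete antimicrobial peptides at the base of the crypt, had no UMI of Reg1, Reg3a or Reg3b in either mouse. A count of 0 allows up to 0.853 CPM in replicate 1 and 0.687 CPM in replicate 2, where the sums held 3515066 and 4363692 UMIs. These limits, like all intervals here, cover counting error only. They are in plain CPM and would be higher after the scaling used for the tests below. Mitochondrial genes were also scarce in Paneth cells, at medians of 0.0907% and 0.185% of UMIs, against 13.2% and 7.59% in enterocytes. The part of such a general loss in the zeros was not tested. Among barcodes of replicate 1 that were not kept as cells, 49.7% held a Reg3b UMI, against 0 of 78 Paneth cells. The study used SoupX to remove free RNA. Whether these matrices had been through it is not given in the sources used here, and its part in the zeros was not tested.

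Reg2 and Reg3d, the other mouse genes of the cluster, were close to 0. Reg3d gave 41 UMIs in the enterocytes of replicate 1 and 9 in those of replicate 2, or 2.12 and 1.68 CPM. Reg2 gave 5 and 0. Neither reached the filter on low counts.

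Each of the 9 epithelial types was then set against the average of the remaining 8, all weighted alike, by the quasi-likelihood test of edgeR on the UMI sums per mouse and type, with the mouse as a block and p values adjusted by the Benjamini-Hochberg method over 11013 genes. The cells had been clustered on the same counts, so these calls describe how far the classes stand apart. In enterocytes 5 of 5 members passed, where 54.5% of all genes did, with Reg1, Reg3a, Reg3b and Reg3g higher and Reg4 lower. The Reg4 call there was lost under a stricter cell filter, with an adjusted p of 1.0 by edgeR. In Paneth cells 2 of 5 passed, Reg4 and Reg3g, both higher, against 27.0% of all genes. DESeq2 called 5 of 5 members in Paneth cells, with its share over all genes not counted. Reg4 was the 1 member called in EEC, where 21.6% of genes were called, and the 1 called in goblet cells, where 29.2% were, and it was higher in both. Reg1 was the 1 member called in TA cells, where 32.8% of genes were called, with an adjusted p of 0.0188 by edgeR that became 0.0605 once Paneth cells were left out.

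No member was called by edgeR in stem cells, secretory progenitors, goblet progenitors or tuft cells, where 25.6%, 4.78%, 12.1% and 16.0% of all genes were. At an unadjusted p under 0.05 the counts there were 1, 1, 0 and 0 of 5, and DESeq2 called 1, 1, 0 and 0.

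Because Paneth cells were at 0, the fitted difference of enterocytes from the mean of the other types depends on the prior count for Reg1, Reg3a and Reg3b. With Paneth cells left out, it was 6.39 for Reg1, 7.51 for Reg3a, 5.84 for Reg3b and 4.34 for Reg3g on the log2 scale, and all 4 remained called by edgeR, with adjusted p values of 1.0e-07, 1.0e-06, 0.0010 and 4.9e-04. All 8 tested alternatives called these 4 genes in enterocytes, with adjusted p at most 0.012.

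Enterocytes were next set against TA cells, the dividing cells they come from. By edgeR 4 of 5 members passed, where 51.7% of all genes did, and all 4 were higher in enterocytes. Reg3a differed by 6.43 ± 0.66 on the log2 scale (SE, adjusted p = 9.1e-05 by edgeR), with 5.30 in replicate 1 and 7.55 in replicate 2. Reg1 differed by 4.51 ± 0.42 (SE, adjusted p = 1.8e-05 by edgeR), with 4.53 and 4.40 in the mice. The differences of Reg1 and Reg3a stood in all 8 tested alternatives.

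The other lectins were less steady in that comparison. Reg3b differed by 5.35 ± 1.85 (SE, adjusted p = 0.044 by edgeR) and Reg3g by 3.23 ± 1.03 (SE, adjusted p = 0.029 by edgeR). Both lost the call without the mouse as a block, with adjusted p of 0.37 for Reg3b and 0.11 for Reg3g, and under a stricter cell filter, with 0.077 and 0.079. That filter kept 145 of 931 enterocytes of replicate 1 and 289 of 382 of replicate 2. Reg4 was not called, at 0 and 0.374 CPM in enterocytes and 2.37 and 0 CPM in TA cells.

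The share of cells with a UMI gave the same leading type for the 4 chromosome 6 members. Reg3g was seen in 96.6% of enterocytes of replicate 1 (exact binomial 95% interval 95.2% to 97.6%) and in 89.5% of replicate 2 (86.0% to 92.4%). Reg3a was seen in 91.6% and 74.1% of enterocytes, Reg3b in 92.5% and 61.5%, and Reg1 in 48.7% and 24.6%. In IEL, which should lack these genes, Reg3g was seen in 16.0% of 50 cells of replicate 1 at a median of 4110 UMIs and in 0 of 18 cells of replicate 2 at 10226 UMIs, which allows a share of up to 16.7%. With each cell thinned to 5000 UMIs the enterocyte shares were 92.4% and 80.9% for Reg3g and 37.3% and 17.3% for Reg1.

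Of the 4 chromosome 6 members, Reg1 was carried by the fewest enterocytes. The top 10% of enterocytes held 76.9% of the Reg1 signal in replicate 1 and 93.7% in replicate 2, summed over cells as shares of each cell's UMIs. For Reg3a the top 10% held 29.9% and 40.7%, for Reg3g 38.9% and 48.0%, and for Reg3b 40.3% and 67.3%. The median enterocyte had 7263 CPM of Reg3b in replicate 1 and 172 CPM in replicate 2, and the highest had 110909.8 and 58873 CPM.

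The deposited annotation splits enterocytes into 5 clusters, numbered 1, 2, 3, 6 and 9, and the members peaked in different ones. Reg3b and Reg3g were highest in cluster 9, of 99 and 58 cells. Reg3b reached 36478 CPM there in replicate 1 and 6542 CPM in replicate 2, and Reg3g 12168 and 6848 CPM. Reg1 was nearly absent from that cluster, at 12.9 and 7.90 CPM, and peaked in cluster 3 at 1662 and 967 CPM.

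Reg3a was high in clusters 1 and 3, with 1738 and 1763 CPM in replicate 1 and 2502 and 2100.1 CPM in replicate 2. It was lowest in cluster 2, at 121 and 49.8 CPM, whose leading genes among the enterocyte clusters included Ptma and the cyclin Ccnd1. Cluster 9 was led by Fabp6, the bile acid binding protein of the ileum, at 20948 CPM in replicate 1 and 6438 CPM in replicate 2 against means of 138 and 54.6 CPM in the other enterocyte clusters. Cluster 3 was led by Reg1 itself. The clusters were drawn from the same cells and genes, so these levels are a description.

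**Figure D2:**
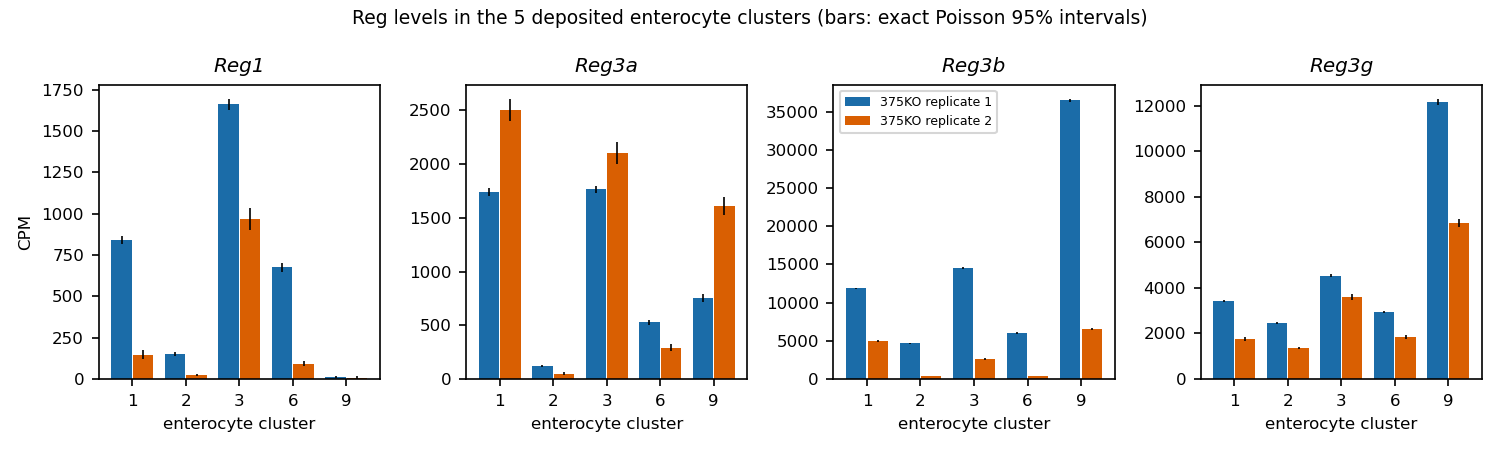
CPM of Reg1, Reg3a, Reg3b and Reg3g (vertical, from 0) in the 5 deposited enterocyte clusters, in blue for replicate 1 and orange for replicate 2, with exact Poisson 95% intervals. Reg3b and Reg3g are tallest in cluster 9 in both mice, where Reg1 is at 12.9 and 7.90 CPM. Reg1 is tallest in cluster 3.

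Within each mouse, enterocytes were also ranked by the summed UMI share of 7 genes of mature enterocytes, such as Apoa1 and Alpi, and split into 3 groups of equal size. Reg3a climbed with this rank in both mice, from 275 to 1392 to 1839.6 CPM in replicate 1 and from 125 to 839 to 2508 CPM in replicate 2. Reg1 went from 246 to 1126 CPM and from 33.9 to 547 CPM between the lowest and the highest group. Reg3g went from 4924 to 4986 to 3532 CPM in replicate 1 and from 2120 to 3804 to 2447 CPM in replicate 2. The middle group was thus hardly above the lowest in replicate 1. Reg3b went from 11762 to 14931 to 13305 CPM in replicate 1 and from 588 to 2180 to 5194 CPM in replicate 2.

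Ranked instead by 7 genes of the villus tip, such as Ada and Nt5e, Reg3g and Reg3b had their highest level in the top group in both mice. Reg3b went from 6532 to 17216 CPM in replicate 1 and from 368 to 5379 CPM in replicate 2. Reg3g went from 3107 to 5427 CPM and from 1249.6 to 4089 CPM. Each group is made of cells of 1 mouse, so no test was made between them.

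**Figure D3:**
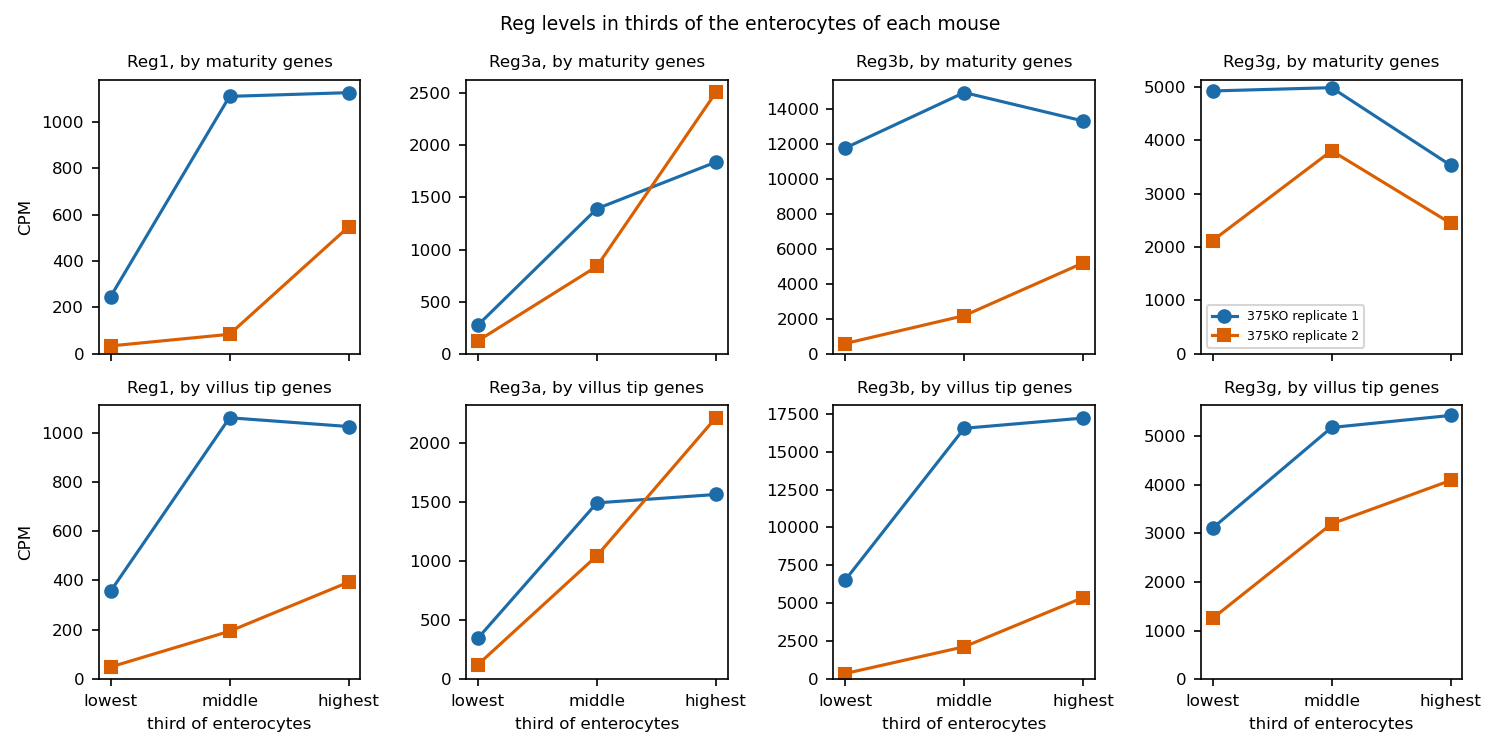
CPM of the chromosome 6 members (vertical, each panel from 0) in 3 groups of enterocytes of each mouse, from lowest to highest, ranked by maturity genes (top row) or villus tip genes (bottom row), in blue for replicate 1 and orange for replicate 2. Reg3a climbs in both rows in both mice. Reg3g is highest in the middle group by maturity genes, in replicate 1 by little, at 4986 against 4924 CPM in the lowest group.

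Reg3b and Reg3g varied together from cell to cell. Over enterocytes thinned to 5000 UMIs, Pearson's r of their log2 values was 0.73 in 930 cells of replicate 1 and 0.50 in 382 cells of replicate 2. For Reg3a and Reg3b it was 0.41 and 0.60, below the former pair in replicate 1 and above it in replicate 2. It was 0.0096 and -0.017 for Reg1 and Reg3b. In replicate 1 the Reg3b and Reg3g values also went together outside enterocytes, with r of 0.81 over 320 TA cells, 0.84 over 162 goblet progenitors and 0.74 over 276 goblet cells. Cells of 1 mouse share a library and are not replicates, so these are descriptions.

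Reg4 followed another pattern. Its levels were 3372 CPM in EEC, 893 CPM in Paneth cells and 284 CPM in goblet cells of replicate 1, and 6685, 1105 and 460.5 CPM in replicate 2. Each of these types lay above the next in both mice. Paneth cells held 48.3% and 63.1% of all Reg4 UMIs, EEC 32.2% and 18.9%, and goblet cells 16.5% and 13.5%. Enterocytes had 0 and 2 Reg4 UMIs, of 19366535 and 5348340. The calls of Reg4 against the average of the remaining types had adjusted p values of 1.5e-05 in EEC, 2.8e-06 in Paneth cells and 0.0013 in goblet cells by edgeR, and their fitted sizes depend on the prior count.

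In Paneth cells Reg4 was carried by nearly every cell, 77 of 78 in replicate 1 and 53 of 54 in replicate 2, with medians of 919 and 1184 CPM. Reg4 was higher in Paneth than in goblet cells by 4.28 ± 0.96 on the log2 scale after trimmed mean (TMM) scaling (SE, adjusted p = 0.015 by edgeR), the 1 of 5 members called where 18.8% of all genes were. The call was lost without the mouse as a block, with adjusted p of 0.079, and by DESeq2, with 0.10. The stricter cell filter left 2 Paneth cells in replicate 1, so its adjusted p of 0.39 rests on 1 Paneth sum that is assumed to vary like the other types. In plain CPM the ratio is smaller, 893 against 284 and 1105 against 460.5.

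Scaling weighs on every Paneth value. The 10 most abundant genes took 82.6% and 81.9% of Paneth UMIs, and the TMM factors of the Paneth sums were 0.156 and 0.121, against 0.952 or more in all other types. After that scaling Reg4 was at 5738 and 9132 CPM in Paneth cells and at 2141 and 4618 CPM in EEC, so Paneth cells, not EEC, came first. The Paneth call of Reg3g (adjusted p = 0.0016 by edgeR) rests on it too, and with the 1 Paneth sum that the stricter cell filter leaves its adjusted p was 0.43. Reg3g was at 4334 and 2082 scaled CPM in Paneth cells, against 675 and 252 CPM without scaling, which is below the TA cells of the same mouse. Enterocytes were at 4505 and 2611 scaled CPM of Reg3g, so on that scale they lay only a little above the Paneth cells of the same mouse.

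In EEC, the hormone cells of the gut, Reg4 was the property of a few cells. It was seen in 9 of 54 EEC of replicate 1 and in 3 of 20 of replicate 2. One cell of replicate 2 held 1428 of the 1440 Reg4 UMIs, 168695 CPM of that cell. One cell of replicate 1 held 822 of 2093, 94963 CPM of that cell. Without these cells, a choice made after their values were seen, EEC were at 2077 CPM in replicate 1 and at 58.0 CPM in replicate 2, the latter below the goblet cells of that mouse. No Paneth cell exceeded 2668 CPM.

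Hormone genes of the Reg4-bearing EEC, also chosen after values were seen, are given as a description. Chga, which encodes the granule protein chromogranin A, was at 4902 CPM in the 9 cells with Reg4 and 1225 CPM in the 45 without in replicate 1, and at 6646 against 862 CPM in replicate 2. Tph1, the serotonin-making enzyme of enterochromaffin cells, was at 921 against 166 CPM and at 501 against 67.6 CPM. Gip, the incretin hormone, went the other way, with 9691 against 49547 CPM in replicate 1 and 0 against 100232.7 CPM in replicate 2. Chgb, which encodes another granule protein, was at 11730 against 11969 CPM and at 16457 against 5290.2 CPM. Tac1, a tachykinin also known from enterochromaffin cells, was at 1390 against 1733 CPM in replicate 1 and at 4352 against 1662 CPM in replicate 2. Cck, another gut hormone, was at 17825 against 11541 CPM and at 132 against 26209 CPM. The highest Reg4 cell had 63 Tph1 and 173 Chga UMIs in replicate 1 and 2 Tph1 and 237 Chga UMIs in replicate 2. In replicate 2 that cell was at 27998 CPM of Chga, so the Chga level of the 3 cells with Reg4 there turns on it. The level without that cell was not computed.

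**Figure D4:**
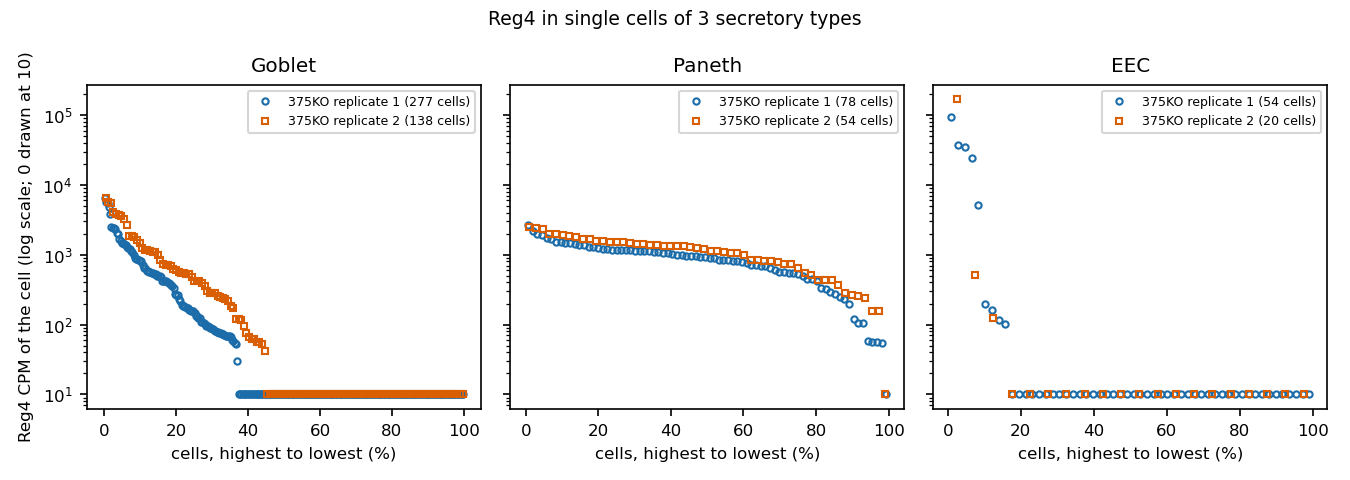
Reg4 CPM of single goblet, Paneth and EEC cells (vertical, log scale, with cells at 0 drawn at 10), ordered from highest to lowest along the horizontal axis in percent of the cells of each mouse, with open blue circles for replicate 1 and open orange squares for replicate 2. Paneth cells lie on a shallow slope with at most 1 cell at 0 in each mouse. In EEC a few cells lie far above every Paneth cell and most are at 0.

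Goblet cells lay between these patterns, with Reg4 in 37.2% and 44.9% of cells. The top 10% of goblet cells held 76.1% and 68.6% of it. Goblet cells were also compared with goblet progenitors, and Reg4 was not called, at 284 against 24.6 CPM in replicate 1 and 460.5 against 199 CPM in replicate 2 (adjusted p = 0.083 by edgeR). Reg1 was the 1 member called there, where 29.1% of all genes were, and was lower in goblet cells by the fit, but the mice disagreed in sign, with -4.71 in replicate 1 and 0.58 in replicate 2 on the log2 scale, at 1 and 8 UMIs in goblet cells. That call was lost by DESeq2 (adjusted p = 0.53), without the mouse as a block (0.28) and under the stricter cell filter (0.13).

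Single cells also set other levels in small types. In tuft cells of replicate 2, 1 of 38 cells held 268 of 299 Reg3g UMIs and all 49 Reg3b UMIs, and it had 2120.2 CPM of enterocyte markers against a median of 21.8 CPM. In secretory progenitors of replicate 1, 1 of 31 cells held 399 of 431 Reg3b UMIs, with 14499.9 CPM of enterocyte markers against a median of 76.3 CPM and 38621 UMIs against a median of 13081. In goblet cells of replicate 2, 1 cell held 288 of 318 Reg3b UMIs and 351 of 454 Reg3g UMIs, with 65.6 CPM of enterocyte markers. Without these cells, chosen after their values were seen, the levels were 58.1 CPM of Reg3g in tuft cells, 75.9 CPM of Reg3b in secretory progenitors, and 13.5 CPM of Reg3b and 46.4 CPM of Reg3g in goblet cells. Tuft cells of replicate 2 then had no Reg3b UMI. The part of doublets in these levels was not tested.

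The 2 mice differed in the levels of the chromosome 6 members. By the rule that a gene be at least 2-fold higher in 5 or more of 9 epithelial types, 4 of 5 members were higher in replicate 1, where 6.92% of 2644 genes at 50 CPM or more were. None of the 5 was higher in replicate 2 by that rule, where 3.67% of genes were. The 50 CPM are over all epithelial cells, and any UMI against 0 counts as 2-fold, so types near 0 enter the rule. Reg3a had 12 against 0 UMIs in goblet cells and 3 against 0 in tuft cells. It met the rule although its ratio in enterocytes was 1.04. The labels name the same kit version for both libraries. Of the 7665 barcodes of replicate 1, 12.6% began with 7 bases that also began a barcode of replicate 2. Of the 1251 of replicate 2, 26.9% did so the other way. The share that 2 libraries of the same kit would give was not computed. Whether the kits differed, and any part of this in the ratios, was not tested. Each mouse is 1 library, so there is no test of these ratios, and their intervals cover counting error alone.

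The ratio depended on the cell type. In enterocytes Reg3b was 5.29 times as high in replicate 1 (exact 95% interval 5.20 to 5.39), Reg1 3.949 times (3.715 to 4.202), Reg3g 1.62 times (1.60 to 1.65) and Reg3a 1.04 times (1.01 to 1.07). In TA cells the ratios were 34.2 for Reg3b, 4.33 for Reg1, 2.23 for Reg3g and 6.17 for Reg3a. In goblet progenitors Reg3b stood at 6302 UMIs in replicate 1 and 9 in replicate 2, a ratio of 217 (114 to 475).

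Reg3b was also seen in more of the cells outside enterocytes in replicate 1. It was in 41.6% of TA cells and 50.0% of goblet progenitors there, and in 4.33% and 3.57% in replicate 2. Barcodes that were not kept as cells carried it as well, at 1596 CPM over 5583 barcodes in replicate 1 and 144 CPM over 58 in replicate 2. Over those under 1500 genes it was at 746 CPM in 5105 barcodes and at 0 in 21 barcodes, while IEL had 34.3 and 0 CPM. Those 5105 barcodes held 10144904 UMIs and those 21 held 411660, and Reg4 was seen in 7.68% and 71.4% of them. The barcodes of the mice thus differ in depth and content, so their Reg3b levels cannot be set side by side as free RNA. The median mitochondrial share of UMIs was 10.2% in replicate 1 and 5.55% in replicate 2. The part of free RNA or of cell state in the ratios was not tested.

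Within enterocyte clusters the ratios did not move together. Reg3b was higher in replicate 1 in all 5 clusters, from 2.40 times in cluster 1 to 14.5 times in cluster 6. Reg3g was 1.25 to 1.94 times as high in all 5. Reg3a was 0.469, 0.695 and 0.840 times as high in clusters 9, 1 and 3, and 1.82 and 2.44 times in clusters 6 and 2. The mix of lectins in enterocytes therefore differed between the mice, with Reg3b at 67.3% of the UMIs of the 5 members in replicate 1 and 38.1% in replicate 2, and Reg3g at 22.9% and 42.3%.

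Reg4 was lower in replicate 1 in the types that held most of it. It was 0.504 times as high in the EEC of replicate 1 as in those of replicate 2 (0.472 to 0.540), 0.808 times in Paneth cells (0.773 to 0.846), 0.616 times in goblet cells (0.565 to 0.672) and 0.123 times in goblet progenitors (0.1001 to 0.1514). The EEC ratio turns on the 1 cell of replicate 2 described above. In tuft cells the ratio was 2.14 (0.988 to 4.84), and stem cells, TA cells and secretory progenitors had 9, 20 and 6 UMIs in replicate 1 and 0 in replicate 2.

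**Figure D5:**
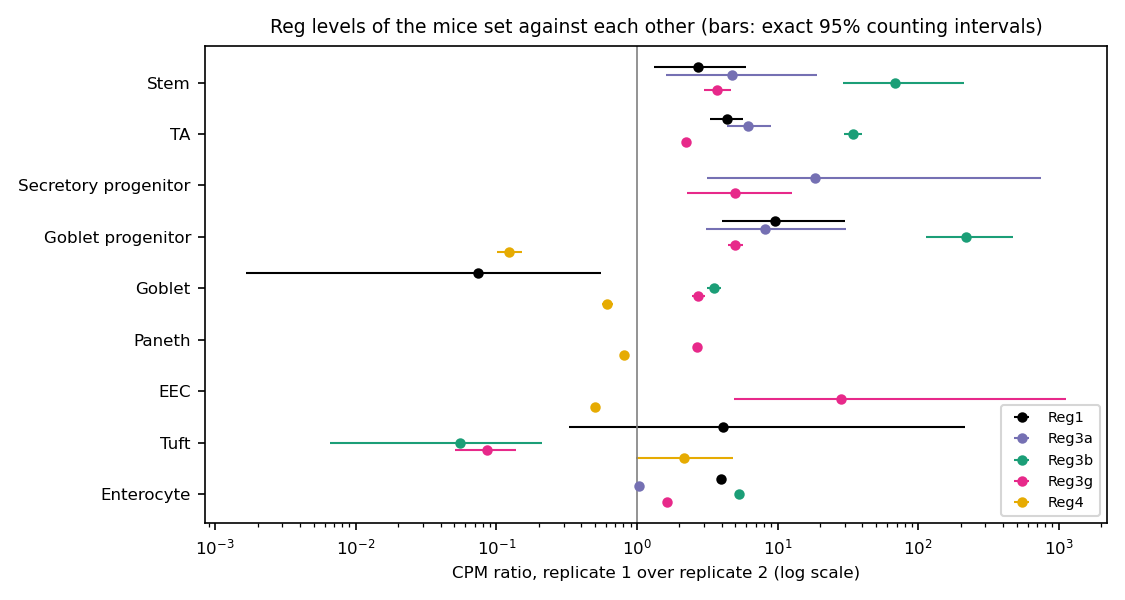
Ratio of CPM in replicate 1 over replicate 2 (horizontal, log scale) for each member in each epithelial type, with exact 95% counting intervals and the line at 1 marking equal levels. Types with 0 UMIs in either mouse are not drawn. Reg3b lies between 3.51 in goblet cells and 217 in goblet progenitors, apart from tuft cells at 0.0553, where the goblet and tuft values each rest on 1 cell of replicate 2, and Reg3a is near 1 in enterocytes.

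Genes listed for signalling around the Reg3 genes, Extl3 among them, were read beside the members. Of 19 listed, 13 were tested, and 8 were higher and 1 lower in enterocytes against the mean of the other types, with a median difference of 0.52 on the log2 scale against 0.03 over all genes tested. Against TA cells 6 were higher and 0 lower, with a median of 0.61 against 0.06. Over all genes 54.5% and 51.7% were called in these comparisons. Stat3, the transcription factor downstream of IL-22, was higher in enterocytes than in TA cells by 1.61 ± 0.20 (SE, adjusted p = 5.2e-08 by edgeR). Il10rb, a subunit of the IL-22 receptor, was higher by 1.55 ± 0.20 (SE, adjusted p = 1.0e-07 by edgeR). Socs3, a feedback inhibitor of STAT3, was higher by 1.38 ± 0.31 (SE, adjusted p = 4.5e-04 by edgeR). Il22ra1, the specific subunit of that receptor, was at 1.12 and 0.456 CPM over all epithelial cells and was not tested.

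Genes of the epithelium that answer to the same cytokine or to microbes did not form 1 pattern. Of 22 listed, 11 were tested, and against TA cells 5 were higher and 1 was lower in enterocytes, with a median of 0.49 against 0.06 over all genes, of which 51.7% were called. Il18, an epithelial cytokine, was higher by 4.75 ± 0.27 (SE, adjusted p = 3.0e-13 by edgeR), and Tifa, an adaptor of NF-κB signalling, was lower, at -0.53 (adjusted p = 0.037 by edgeR). Between the mice, 3 of the 6 at 50 CPM or more were higher in replicate 1 by the rule above, Il18, Itln1 and Ang4. Over all epithelial UMIs Itln1 and Ang4 went the other way, at 4104 and 860 CPM in replicate 1 and 4692 and 2095 CPM in replicate 2. The inducible genes Saa1, Saa2, Saa3, Lcn2, S100a8 and S100a9 were each at or under 0.617 CPM in both mice.

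Genes whose levels over the 18 sums were most like those of each member were named by Pearson's r of log2 CPM after TMM scaling. That scaling weighs on the Paneth sums, as described above. For Reg1 they were Gna11 (0.96), Maoa (0.95) and Slc51a (0.95), and for Reg3a Apoa4 (0.94) and Emp1 (0.93). For Reg3b they were Il18 (0.95), Adgrg7 (0.94) and Smad7 (0.93). Reg3g was most like Fth1, Zfyve21 and Ergic2 (0.90, 0.90 and 0.88), and its r with the other members was at most 0.43. Reg4 was most like Cxxc5 (0.96), Tspan1 (0.94) and Dnajc12 (0.94). The 18 sums share 2 libraries and 9 types, so these values order genes and carry no test.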

How the data were processed

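Single-cell RNA was counted in jejunal crypts of 2 mice of 1 genotype, 1 library each. Per the labels, the authors aligned reads to mm10 with Cell Ranger 3.0.1. They deposited a matrix of UMI counts per gene and barcode for each library, and a table that gives each kept cell its type, cluster and the percent of its UMIs from mitochondrial genes. Per the paper's methods, they removed cells under 1500 genes or over 25% mitochondrial UMIs, called doublets, removed free RNA with SoupX and named clusters from marker scores. The deposited sctransform table and doublet calls were not used, nor were 2937 cell columns that belong to another series.

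The annotation carries no barcodes and was joined by cell order. UMI total and gene number were equal for 3275 of 3275 cells. Library totals over the kept cells were 44017234 and 22163354 UMIs. A level is UMIs per 1000000 UMIs of the type (CPM), with an exact Poisson 95% interval. Shares of cells have Clopper-Pearson intervals. Counts were summed per mouse and type (at least 10 cells). The 18 sums of 9 epithelial types were filtered with filterByExpr, scaled with TMM and fitted with edgeR 4.0.16 (robust quasi-likelihood, 8 residual degrees of freedom), with type and mouse as terms. The mouse pairs the sums because cells of 1 number come from 1 animal. The SE is the difference over the square root of F. Tests were two-sided, with a threshold of 0.05 after adjustment over 11013 genes. P values rest on 2 mice and on 1 shared spread per gene over the types.

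The fit was tested on simulated counts. Alternatives were other size factors, DESeq2 1.42.0, no filter on low counts, no block, at least 2500 genes and at most 10% mitochondrial UMIs per cell, 5000 UMIs per cell, other type sets and each mouse alone. Named genes were the members, Reg2 and Reg3d, the 3 genes most like each member (1 of them is not reported here), and the signalling and response lists where called. Hormone genes and left-out cells were chosen after their values were seen. The members and lists were chosen with earlier results of these data known.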

Additional observations from a re-analysis of the deposited data

Results flagged for a closer look

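Members were also counted in barcodes that the authors did not keep as cells, which no comparison of types used. Over 5583 such barcodes of replicate 1, Reg3b was at 1596 CPM, Reg3g at 866 CPM, Reg4 at 266 CPM, Reg3a at 138 CPM and Reg1 at 106 CPM. Over 58 such barcodes of replicate 2, Reg4 was at 918 CPM, Reg3g at 167 CPM, Reg3b at 144 CPM, Reg3a at 32.4 CPM and Reg1 at 3.97 CPM. All 10 values lie above what a count of 0 allows. The order of Reg3b and Reg4 was opposite in these barcodes of the 2 mice, but the barcodes are unlike. The 5583 held 20287851 UMIs and the 58 held 1511657, and Reg4 was seen in 9.89% and 81.0% of them.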

How the results depend on the processing

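Of 45 tests of a member in a type, 10 passed, where 4.78% to 54.5% of all genes did, depending on the type. For the alternatives below, the share over all genes was not counted. DESeq2 called 17 and the fit with no filter on low counts 27. For enterocytes against TA cells, 4 calls became 2 with no replicate block and 2 under the stricter cell filter. For Paneth against goblet cells, 1 call became 2 by DESeq2, 3 with no filter, 0 with no replicate block and 0 under the stricter cell filter, with 1 Paneth sum left. For goblet cells against goblet progenitors, 1 became 0 by DESeq2, 4 with no filter, 0 with no replicate block, 0 under the stricter cell filter and 2 after thinning. Reg1 in the latter ran from -4.71 without replicate 2 to 0.58 without replicate 1. The call of Reg1 in TA cells was lost with no replicate block (adjusted p = 0.24 by edgeR), under the stricter cell filter (0.14) and by DESeq2 (0.21).

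The log2 ratio of replicate 1 over replicate 2, with the 9 types weighted alike, was 2.02 for Reg1, 0.25 for Reg3a, 2.66 for Reg3b, 0.86 for Reg3g and -0.87 for Reg4. With all UMIs summed it was 2.78, 0.93, 3.30, 1.45 and -1.23. Without the 10 most abundant genes in the total it was 2.12, 0.36, 2.75, 1.06 and -0.65. Without mitochondrially encoded genes, Reg3a was 0.34, Reg3b 2.74 and Reg3g 0.93. By TMM scaling Reg3g was 0.92, and with Paneth cells left out it was 0.81 and Reg4 -0.98. Under the stricter cell filter the ratios were 1.14 for Reg1, -0.58 for Reg3a, 2.48 for Reg3b, 0.75 for Reg3g and 2.92 for Reg4. Reg3a and Reg4 turned sign. That filter kept 2 Paneth cells of replicate 1, so the type was left out, and 12 of 1440 Reg4 UMIs in the EEC of replicate 2. It kept 145 of 931 enterocytes of replicate 1 and 289 of 382 of replicate 2. Before the filter the median mitochondrial share of enterocytes was 13.2% and 7.59%. The part of this uneven loss in the ratios was not tested. Settings chosen after seeing the data were enterocytes alone (Reg3a 0.0505, Reg3b 2.40 and Reg3g 0.70), their 5 clusters weighted alike (Reg1 1.43, Reg3a -0.42, Reg3b 2.30 and Reg3g 0.72) and enterocytes without cluster 9 (Reg1 1.92, Reg3b 2.55 and Reg3g 0.80). Where a cause is not named, it was not tested.

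The limits are 2 mice of 1 genotype with 1 library each, 18 to 54 cells per mouse for EEC, tuft cells, secretory progenitors and IEL, and levels near 0 that a few UMIs decide.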
